A study of Mus musculus with 6 samples.

Results

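The hormone genes of the enteroendocrine cells, the scattered endocrine cells of the gut lining, were described in intestinal epithelial cells with and without caspase-8. They comprise 9 precursors of gut peptide hormones and chromogranin A, a protein of the secretory granule. All probe sets that the platform annotation pairs with Gcg, Pyy, Cck, Gip, Sst, Sct, Nts, Ghrl, Tac1 or Chga were taken, without regard to their values. This gave 11 probe sets of 34945 that are paired with 1 gene, and 10 genes of 18193. The genes themselves were chosen with earlier results of these data known. Tac1 has 2 probe sets and each of the other genes has 1.

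The study compared 3 floxed control mice with 3 caspase-8 deficient mice, each giving 1 array, on the C57BL/6 background. Both groups carry the floxed casp8 gene. The controls are villinCre negative and the deficient animals villinCre positive, so that the Cre recombinase is made under the villin promoter of the gut epithelium. The age of the animals and the gut segment were not given in the sources used here, and the labels call each array a biological replicate. Values are the authors' RMA values (robust multi-array average, which corrects background, equalises arrays and summarises each probe set) on the log2 scale, where a difference of 1 is a doubling. Levels of different probe sets are not comparable with each other, so no order of levels between genes is given.

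Enteroendocrine cells are a small secretory lineage of the gut epithelium. They arise from crypt stem cells through the transcription factors Atoh1 and then Neurog3, store peptides in granules and release them when nutrients, bile acids or neural signals reach them. Classic descriptions assign secretin, cholecystokinin, GIP and ghrelin mainly to the upper gut, and the glucagon-like peptides, peptide YY and neurotensin mainly to the ileum and colon. In bulk RNA, fewer cells of a type and less RNA per cell cannot be told apart.

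All 10 epithelial markers were measured, and they averaged 12.05 to 12.21 on the control arrays and 12.07 to 12.17 on the deficient arrays. The 15 measured markers of enteric neurons and glia averaged 3.92 to 4.01 and 3.96 to 3.98, and the 11 of lymphocytes 7.63 to 8.29 and 7.38 to 7.76. Among the latter, Gzma, a granzyme of cytotoxic lymphocytes, read 12.01 to 12.71. Without detection calls, and with levels not comparable between probe sets, these averages cannot give the share of any cell type. Casp8 read 10.53, 9.74 and 10.24 in control mice and 9.27, 9.56 and 10.40 in deficient mice, so the groups overlapped. Which exons were deleted is not given in the sources used here, so this probe set cannot check the genotype. Some arrays stood apart from their group. The Gapdh difference, the signal of the 3′ minus that of the 5′ Gapdh control probe set, grows with RNA degradation and was 0.68 and 0.93 in control replicates 1 and 2 and 0.21 to 0.29 on the other 4 arrays. Some stomach markers were high in control replicate 3 and some stromal markers in deficient replicate 1, with values given below. The B cell markers Cd79a, Cd79b and Ms4a1 read 5.47, 6.73 and 6.56 in control replicate 3. On the other arrays they read at most 4.64, 5.81 and 4.68. The T cell markers Cd3e, Cd3g and Cd8a were not highest in control replicate 3.

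Of the 10 genes, Gcg was lower in the caspase-8 deficient cells, by 2.16-fold, and it was the 1 member to pass in limma after Benjamini-Hochberg adjustment over all 18193 genes at a threshold of 0.05. The background of that call is 0.467% of genes lower and 0.308% higher. Pyy, Tac1 and Sst had differences of −0.72, −0.65 and −0.50 with unadjusted p of 0.00259, 0.00283 and 0.0111, and did not pass. In all, 4 members were lower and 0 higher at an unadjusted p of 0.05, against 8.53% and 8.12% of all genes. In 5 members every deficient array lay below every control array, against 11.2% of all genes. The difference was below 0 in 9 of the 10, against 46.1% of all genes, and the members' median difference was −0.25, against 0.022 over all genes. In the fit over single probe sets, 1 of the 11 was called lower and 0 higher, against 0.249% and 0.149% of probe sets.

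**Figure D1:**
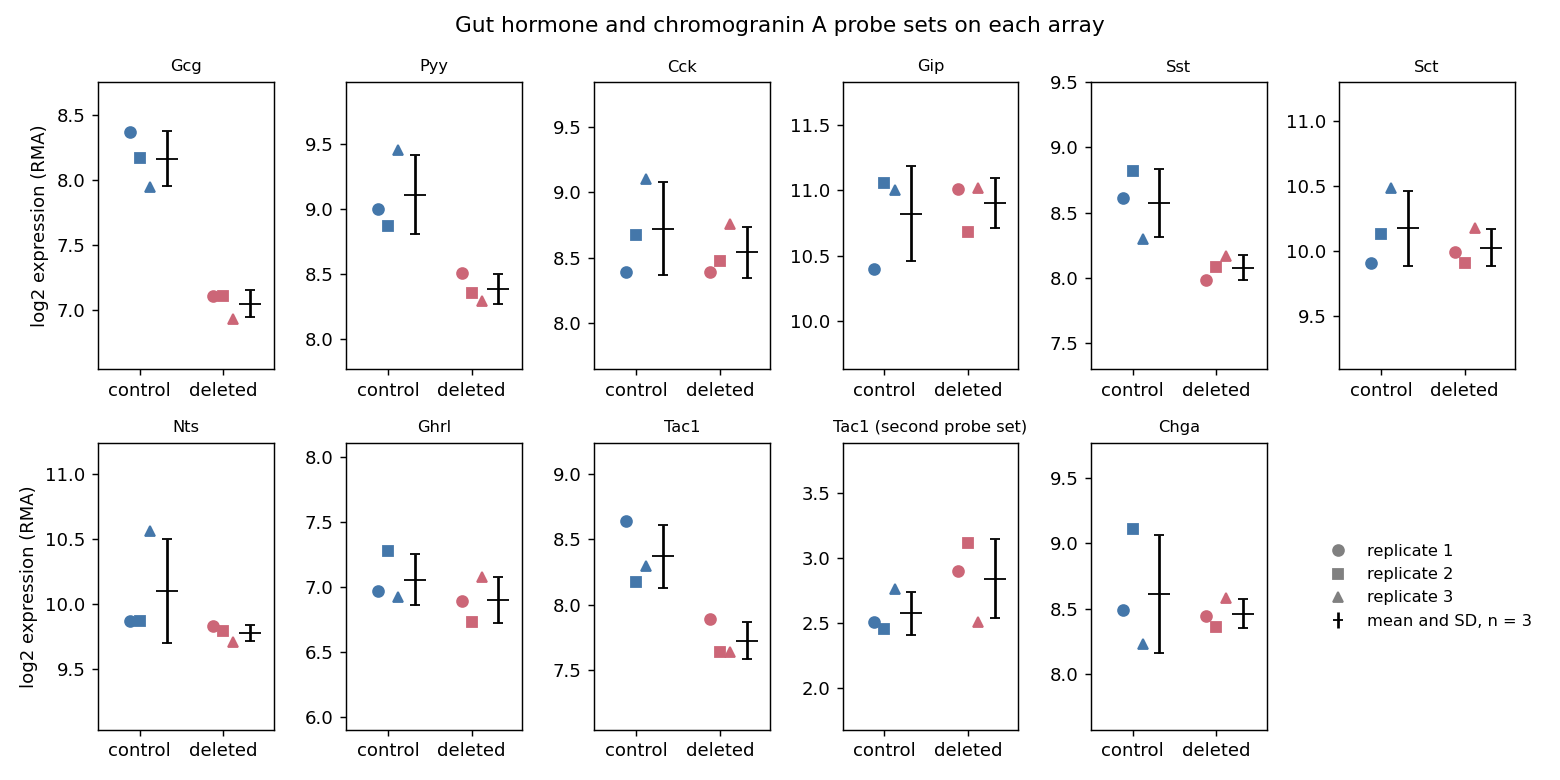
Log2 expression (RMA) of each of the 11 probe sets on the 3 control and 3 deficient ("deleted") arrays, one panel per probe set, each spanning 2.2 log2 units; symbols mark replicate numbers, bars the mean and SD. The deficient arrays lie below all controls for Gcg, Pyy, Sst, Nts and the first Tac1 probe set, and the groups overlap in the other panels.

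Gcg encodes proglucagon, from which gut cells cut the glucagon-like peptides that raise insulin release and support mucosal growth. It read 8.37, 8.17 and 7.95 in control mice and 7.11, 7.11 and 6.93 in deficient mice. The groups were separated by more than the spread within either, 8.16 ± 0.21 against 7.05 ± 0.10 (SD, n = 3). The difference was −1.11 (SE 0.14, 95% confidence interval −1.43 to −0.79, limma adjusted p = 0.0183 over genes and 0.0228 over probe sets). The call was kept without control replicate 3 (−1.22, adjusted p = 0.0326) and without deficient replicate 1 (−1.14, adjusted p = 0.0289). It was lost without control replicate 1 (−1.01, adjusted p = 0.0810), control replicate 2 (−1.11, 0.0922), deficient replicate 2 (−1.14, 0.113) or deficient replicate 3 (−1.06, 0.0870). In those 4 settings 18 to 31 of 18193 genes were called. It was also lost with the Gapdh difference as a covariate (−0.97, adjusted p = 0.172), where 36 genes were called. Leaving out control replicates 1 and 2 together keeps control replicate 3 as the only control array, and the Gcg difference was then −0.90. The Gapdh difference sets apart the same control arrays, so these settings are not independent checks.

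Pyy encodes peptide YY, which slows gut transit and curbs appetite and is made largely by the cells that make proglucagon. The controls read 9.0, 8.87 and 9.45, and the deficient animals 8.51, 8.35 and 8.29. All deficient arrays were below all controls, with control replicate 3 highest. The difference was −0.72 (SE 0.17, 95% confidence interval −1.1 to −0.33, limma adjusted p = 0.102) and −0.55 without control replicate 3.

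Nts encodes neurotensin, a peptide of the distal small intestine that is released after fat. It read 9.87, 9.87 and 10.56 in control mice and 9.83, 9.79 and 9.71 in deficient mice. The groups did not overlap, but control replicates 1 and 2 stood just above the highest deficient array, and control replicate 3 well above all the others. It was −0.32 (SE 0.19, interval −0.77 to 0.12, limma adjusted p = 0.445) with that array and −0.09 without it.

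Sst encodes somatostatin, the inhibitor of many endocrine cells. It read 8.61, 8.82 and 8.30 in control mice and 7.98, 8.08 and 8.17 in deficient mice. The groups did not overlap, though the lowest control (8.30) stood close above the highest deficient array (8.17). The difference was −0.50 (SE 0.15, interval −0.85 to −0.15, limma adjusted p = 0.177). It was −0.25 with the Gapdh difference as a covariate and −0.22 without control replicates 1 and 2.

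Tac1 encodes the precursor of substance P and neurokinin A, peptides of enterochromaffin cells and of enteric neurons. Its first probe set read 8.64, 8.17 and 8.30 in control mice and 7.89, 7.64 and 7.64 in deficient mice, with no overlap. The difference was −0.65 (SE 0.15, interval −1.0 to −0.30, limma adjusted p = 0.106). The second probe set read 2.51, 2.45 and 2.76 against 2.90, 3.11 and 2.51, near the low end of the table, where RMA compresses changes. Its groups overlapped, with a difference of 0.26 (interval −0.14 to 0.66, limma adjusted p = 0.510 over probe sets). With the mean of both probe sets the Tac1 difference was −0.19.

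The groups overlapped for Cck, Gip, Sct, Ghrl and Chga. Cck encodes cholecystokinin, which contracts the gallbladder and stimulates pancreatic secretion, and read 8.39, 8.67 and 9.10 in control mice and 8.39, 8.47 and 8.76 in deficient mice. The ranges overlapped across most of their width. The difference was −0.18 (SE 0.20, interval −0.63 to 0.27, limma adjusted p = 0.684). With 1 array left out it ran from −0.35 (without control replicate 1) to 0.01 (without control replicate 3).

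Gip encodes the glucose-dependent insulinotropic peptide, an incretin of the duodenum and jejunum. The controls read 10.40, 11.06 and 11.00 and the deficient animals 11.01, 10.68 and 11.02. Control replicate 1 was the lowest array and deficient replicate 2 the next, and the groups overlapped. Gip was the 1 member with a difference above 0, at 0.08 (SE 0.20, interval −0.37 to 0.54, limma adjusted p = 0.868), and ran from −0.13 (without control replicate 1) to 0.21 (without control replicate 2) with 1 array left out.

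Sct encodes secretin, which stimulates bicarbonate secretion by the pancreas. It read 9.91, 10.13 and 10.48 in control mice and 9.99, 9.91 and 10.18 in deficient mice. The deficient arrays lay inside the control range. The difference was −0.15 (SE 0.17, interval −0.53 to 0.24, limma adjusted p = 0.697). With 1 array left out it ran from −0.28 (without control replicate 1) to 0.01 (without control replicate 3).

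Ghrl encodes ghrelin, a peptide made chiefly in the stomach that stimulates appetite. It read 6.97, 7.28 and 6.92 in control mice and 6.89, 6.73 and 7.08 in deficient mice, with overlapping groups. The difference was −0.16 (SE 0.15, interval −0.50 to 0.18, limma adjusted p = 0.632). It was −0.22 without control replicate 3, and with 1 array left out it ran from −0.25 (without deficient replicate 3) to −0.05 (without control replicate 2). Some stomach genes were high on control replicate 3: Gkn1, a gastrokine of the stomach lining, read 10.58 there and 4.07 to 4.47 on the other arrays. The gastrokine Gkn2 read 10.93 against 3.96 to 4.29, and the trefoil peptide Tff1 read 11.60 against 7.36 to 7.70. The 11 measured stomach markers averaged 6.31 on it and 4.27 to 4.45 on the others. Tff2 (6.20) and Muc5ac (7.34) were also high on it. Atp4a (3.65), Atp4b (6.12), Pgc (4.18), Lipf (2.56), Gast (4.42) and Sox2 (1.80) were not. On the same array Ghrl, Sst, Gcg and Chga had their lowest control values, and Pyy, Cck, Sct and Nts their highest. The part of stomach tissue in these values was not tested.

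Chga encodes chromogranin A, a granule protein that many endocrine cells share. It read 8.49, 9.11 and 8.23 in control mice and 8.44, 8.36 and 8.58 in deficient mice. The deficient arrays lay inside the control range, and control replicate 2 was the highest. The difference was −0.15 (SE 0.21, interval −0.64 to 0.35, limma adjusted p = 0.768). It was −0.34 without control replicate 3, 0.10 without control replicate 2, 0.23 without control replicates 1 and 2, and 0.27 with the Gapdh difference as a covariate. The intervals of Cck, Gip, Sct, Ghrl and Chga all span 0, with bounds between −0.64 and 0.54. With control replicates 1 and 2 left out, control replicate 3 is the only control array. Cck then stood at −0.56, Sct at −0.46 and Nts at −0.79. That array was the highest control for each of these genes.

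**Figure D2:**
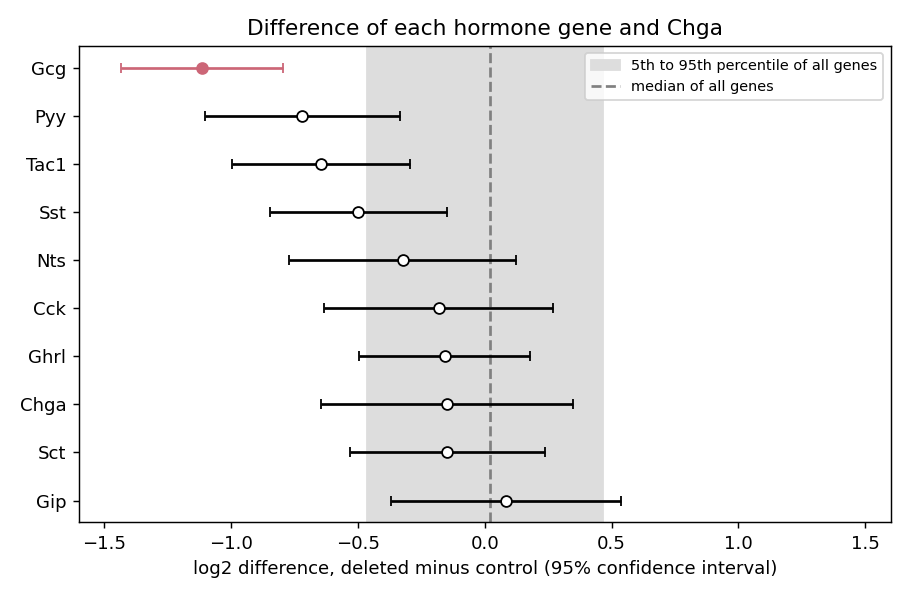
Log2 difference, deficient minus control, of the 10 genes with its 95% confidence interval from limma; the filled point passed the adjusted threshold. The grey band holds the 5th to 95th percentile of all 18193 genes (−0.47 to 0.47), and Gcg, Pyy, Tac1 and Sst lie beyond its lower edge.

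The promoter sequences of Gcg, Pyy, Tac1 and Sst are shown because these are the 4 genes with an unadjusted p under 0.05. All 10 members matched the RefSeq promoter table (GRCm38.p6), and the start site nearest the annotated 5′ end of the gene was used. Each stretch holds the 150 bases before that start, 5′ to 3′ on the gene's strand. The stretches lie at chr2:62483654-62483803 (minus strand) for Gcg, chr11:102107833-102107982 (minus) for Pyy, chr6:7554911-7555060 (plus) for Tac1 and chr16:23890845-23890994 (minus) for Sst. Capitals mark CANNTG, the general form of the E-box, TGACGTCA, the cyclic AMP response element, and TATAAA, the TATA box.
Gcg: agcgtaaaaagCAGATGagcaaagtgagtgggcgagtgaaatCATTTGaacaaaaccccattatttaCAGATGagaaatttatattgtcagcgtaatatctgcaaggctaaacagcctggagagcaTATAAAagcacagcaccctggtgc
Pyy: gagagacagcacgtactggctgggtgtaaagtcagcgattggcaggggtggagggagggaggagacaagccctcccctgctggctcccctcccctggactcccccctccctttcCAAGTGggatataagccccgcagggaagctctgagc
Tac1: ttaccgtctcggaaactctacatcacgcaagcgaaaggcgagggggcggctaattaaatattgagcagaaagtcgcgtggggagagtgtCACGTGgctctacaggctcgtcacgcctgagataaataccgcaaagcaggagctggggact
Sst: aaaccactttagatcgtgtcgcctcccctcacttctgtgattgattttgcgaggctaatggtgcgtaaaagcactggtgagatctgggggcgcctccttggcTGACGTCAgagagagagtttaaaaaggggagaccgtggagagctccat

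The Gcg stretch held 3 E-box matches, which begin 139, 108 and 83 bases before the start, and a TATAAA match 24 bases before it. Pyy and Tac1 held 1 E-box match each, at 36 and 61 bases, and Sst held none. The response element in Sst, 48 bases before the start, is the textbook element of the somatostatin gene. Both strands were searched for CANNTG and TGACGTCA and the gene's strand for TATAAA, and no matches overlapped. E-box matches stood in 8 of the 10 members and in 47.7% of 32851 promoter stretches of that length. TGACGTCA stood in 1 of 10 and 1.36%, and TATAAA in 2 of 10 and 4.84%, the second being Sct. These matches describe letters, not bound sites, and no motif searched stood in all 4 of the stretches shown.

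For the lists that follow, 8.53% of all genes were lower and 8.12% higher at an unadjusted p of 0.05. Of all genes, 46.1% were below 0, with a median of 0.022. Of 14 measured genes for other gut peptides, 0 passed in limma, with 2 lower and 1 higher at an unadjusted p of 0.05 and a median difference of 0.047. Iapp, which encodes amylin, stood at −0.52 and Cartpt, a neuropeptide precursor, at −0.41, while Ppy, which encodes pancreatic polypeptide, stood at 0.36 and Nmu, neuromedin U, at 0.25. Iapp read 6.65, 6.48 and 6.41 in control mice and 5.61, 6.04 and 6.31 in deficient mice. Its groups did not overlap, while its other probe sets differed by −0.60, −0.42 and −0.08. Of the 9 measured markers of pancreatic islets, some of which are also in this list, 0 passed, with 1 lower and 2 higher at an unadjusted p of 0.05 (median 0.072). They averaged 4.66 to 4.81 in control mice and 4.72 to 4.82 in deficient mice.

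Granins condense the granule content, and the prohormone convertases cut the precursors. Of 15 measured genes of this kind 0 passed in limma, 3 were lower and 0 higher at an unadjusted p of 0.05, and 12 had a difference below 0 (median −0.17). Chgb, chromogranin B, read 10.74, 11.06 and 10.76 in control mice and 10.64, 10.41 and 10.41 in deficient mice, a difference of −0.37 with no overlap. Pcsk1, the convertase that cuts proglucagon in gut cells, read 6.22, 5.84 and 6.05 against 5.72, 5.47 and 5.49, a difference of −0.48. Resp18, a granule protein, stood at −0.45 and Scg3, a granin, at −0.30. The limma adjusted p of these 4 lay between 0.147 and 0.351.

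Of 19 measured transcription factors of the lineage, Atoh1 was called lower, 0 were called higher and 18 did not pass. At an unadjusted p of 0.05, 6 were lower and 0 higher, against 8.53% and 8.12% of all genes. The difference was below 0 in 15, against 46.1% of all genes (median −0.26). Atoh1, which commits crypt cells to all secretory fates, read 8.12, 8.17 and 8.32 in control mice and 7.27, 7.33 and 7.49 in deficient mice (difference −0.84, limma adjusted p = 0.0263). It kept the call without deficient replicate 1 (adjusted p = 0.0430) and lost it without each of the other 5 arrays, at 0.112, 0.0976 and 0.0798 without control replicates 1, 2 and 3 and 0.151 and 0.0822 without deficient replicates 2 and 3. Foxa2, a forkhead factor of endocrine differentiation, stood at −0.80 (adjusted p = 0.0932), Sox4 at −0.81 (0.160) and Isl1, a factor of hormone-producing cells, at −0.53 (0.205). The 2 Isl1 probe sets differed, the other standing at −0.07, and the other 7 Sox4 probe sets ran from −0.76 to 0.42.

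Neurog3 and Neurod1, the factors of the endocrine branch itself, did not pass. Neurog3, which commits cells to the endocrine fate, read 5.59, 5.84 and 5.58 against 5.59, 5.28 and 5.40 by one probe set (−0.24). Its other probe set read 3.02, 3.02 and 3.04 against 3.82, 3.36 and 3.22 (0.44), so the 2 differed in sign. The readings of the other probe set lie below the median of every array (4.85 to 4.91), toward the low levels where RMA compresses changes. Those of the first, 5.28 to 5.84, lie above it. Neurod1, which acts after Neurog3, read 7.04, 7.26 and 7.74 against 6.95, 7.15 and 7.30 (−0.21).

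Of 20 measured genes of vesicle release and excitability, Ptprn2 was called lower and 0 were called higher, with 5 lower and 1 higher at an unadjusted p of 0.05 (median −0.047). Ptprn2, a phosphatase-like protein of dense-core granules, read 7.43, 7.25 and 7.51 in control mice and 6.75, 6.50 and 6.37 in deficient mice (−0.86, limma adjusted p = 0.0441 over genes). It did not pass over probe sets (0.0569), its other probe set stood at 0.13, and their mean was −0.37. Leaving out deficient replicate 1 kept the call (adjusted p = 0.0301), and leaving out any other array lost it. The adjusted p was then 0.190, 0.101 and 0.105 without control replicates 1, 2 and 3 and 0.179 and 0.153 without deficient replicates 2 and 3. The call was also lost with the quantile normalisation repeated (0.0576) and with the replicate number as a block (0.0717). Rab3c, a small GTPase of secretory vesicles, stood at −0.60, Unc13b, a vesicle priming factor, at −0.31, and Gnao1, a G protein subunit, at 0.45.

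**Figure D3:**
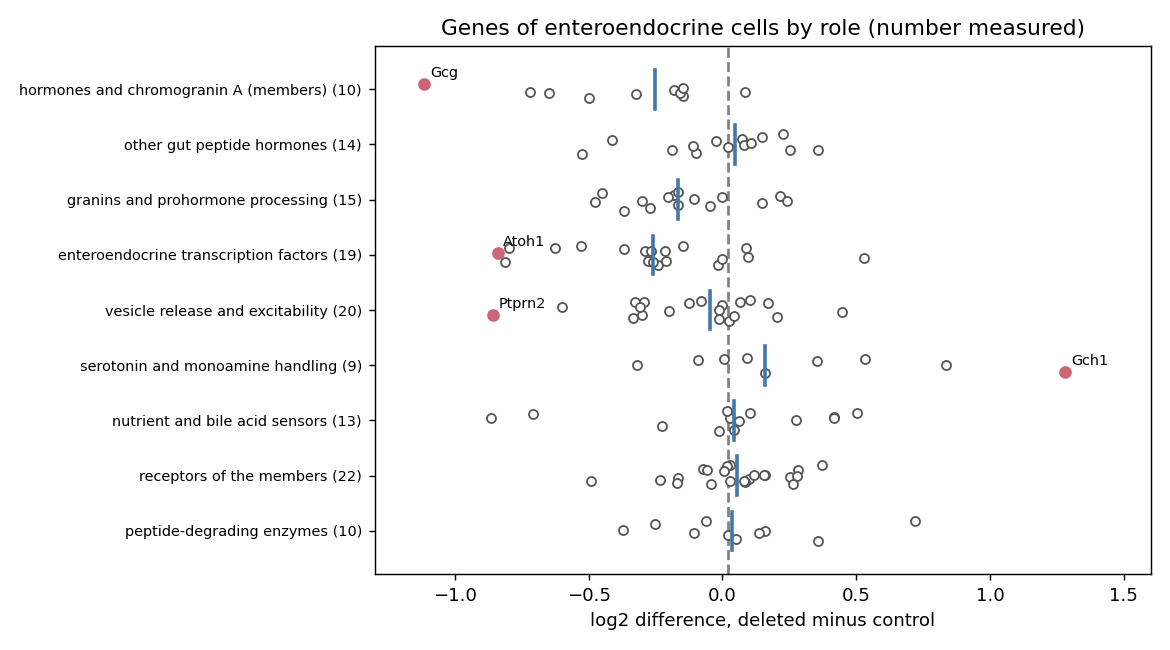
Log2 difference, deficient minus control, of every measured gene in the 9 role lists, with the number measured in brackets; filled points passed the adjusted threshold, short vertical bars are list medians and the dashed line is the median of all genes. The medians of the hormone genes (−0.25) and transcription factors (−0.26) lie lowest and that of the monoamine genes (0.16) highest.

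Serotonin, the amine of the enterochromaffin cells, needs its own enzymes. Of 9 measured genes of serotonin and monoamine handling, Gch1 was called higher and 0 lower, with 4 higher and 0 lower at an unadjusted p of 0.05 (median 0.16). Gch1, which makes the tetrahydrobiopterin that the tryptophan hydroxylases need, read 9.10, 9.06 and 9.88 in control mice and 10.52, 10.64 and 10.73 in deficient mice (1.28, limma adjusted p = 0.0490 over genes). Over probe sets it did not pass (0.0612), and its other probe set stood at 0.93. Without control replicate 3 it passed (1.55, adjusted p = 0.0154), and without control replicates 1 or 2 it did not (0.202, 0.162), nor without deficient replicates 1, 2 or 3 (0.0564, 0.192, 0.198). The call was also lost with the quantile normalisation repeated (0.0518). The difference was 0.84 with the Gapdh difference as a covariate and 0.75 without control replicates 1 and 2. Maob and Maoa, which degrade monoamines, stood at 0.53 and 0.35 (limma adjusted p = 0.159 and 0.198). Ddc, the decarboxylase that completes serotonin synthesis, read 9.28, 10.25 and 9.28 against 9.87, 10.48 and 10.96. Its groups overlapped, with a difference of 0.83 (limma adjusted p = 0.269). Tph1, the hydroxylase that marks enterochromaffin cells, read 7.20, 7.19 and 7.86 against 7.10, 7.04 and 7.15 (−0.32, limma adjusted p = 0.435).

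Of 13 measured nutrient and bile acid sensors, 0 passed in limma, with 2 lower and 0 higher at an unadjusted p of 0.05 (median 0.044). Both that were lower bind fatty acids: Ffar4, a receptor of long-chain fatty acids, read 6.61, 6.89 and 6.77 against 5.91, 6.32 and 5.92 (−0.71, adjusted p = 0.0869). Ffar2, a receptor of short-chain fatty acids that proglucagon-making cells carry, read 7.27, 7.68 and 6.57 against 6.31 on each deficient array (−0.86, adjusted p = 0.163). The deficient values were identical (SD 0), so they give no measure of the spread among these animals. The second Ffar2 probe set read 6.41, 6.97 and 6.21 against 5.79, 5.87 and 5.89. Tas1r2, a sweet taste receptor subunit, stood at 0.28 and Slc15a1, the peptide transporter, at 0.42.

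Of 22 measured receptors of these hormones, 0 passed in limma, with 1 lower and 0 higher at an unadjusted p of 0.05 (median 0.054). The 1 was Sort1, a sorting receptor that binds neurotensin, at −0.49, while its other probe sets stood at −0.30 and −0.09. The tachykinin receptor Tacr1 stood at 0.37, the somatostatin receptor Sstr4 at 0.28 and Npy5r, a receptor of peptide YY, at 0.25. Of 10 peptide-degrading enzymes 0 passed, with 0 lower and 2 higher at that p (median 0.035). The 2 were Mme, neprilysin, at 0.72 and Fap, a fibroblast protease related to Dpp4, at 0.36, while Ece1 stood at −0.37 and Nln, neurolysin, at −0.25. Dpp4, the peptidase that inactivates the incretins, was not among them, at 0.16 with overlapping groups.

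Because hormones differ along the gut, markers of gut region are given beside them. The 11 markers of the upper small intestine were all above 0 in difference (median 0.32), 0 passed in limma, and 6 were higher and 0 lower at an unadjusted p of 0.05. They averaged 10.01, 10.01 and 10.31 on the control arrays and 10.37, 10.49 and 10.49 on the deficient arrays. Gata4, a transcription factor of duodenum and jejunum, stood at 0.60 (adjusted p = 0.0519). Of the 14 measured markers of ileum and colon, 1 was called lower and 0 higher, 6 were lower and 1 higher at the unadjusted p (median −0.29), and their averages were 8.18 to 8.70 and 7.82 to 8.02. The 1 was the angiogenin Ang4, which is also a Paneth cell product. Ang4 (−2.89) and Retnlb (−2.74) had the widest differences of the list and weigh most in the gap between its group averages. The carbonic anhydrase Car1 read 9.84, 4.09 and 4.43 in control mice and 7.39, 5.53 and 4.05 in deficient mice. Car1 therefore weighs on the averages of single arrays, such as control replicate 1. In 10 of the 14 the difference was below 0, while Mep1b (0.26), Slc51b (0.05) and Aqp8 (0.03) stood above it. The carbonic anhydrase Car4 stood at −0.75, the enterocyte hormone Fgf15 at −1.17, the bile acid binding protein Fabp6 of the ileum at −0.29 and Slc10a2, the ileal bile acid transporter, at −0.22, while the colonic factor Hoxb13 stood at 1.13. The part of gut region in the differences of Gcg, Pyy and Nts was not tested.

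Some stromal and endothelial markers were high on 1 deficient array. The 12 markers averaged 5.83 on deficient replicate 1 and 4.23 to 4.50 on the other arrays, and 0 passed in limma, with 0 lower and 2 higher at an unadjusted p of 0.05. On deficient replicate 1 Pdgfrb (8.46), Kdr (8.27), Col1a2 (7.36), Cdh5 (6.76) and Pecam1 (5.19) were well above the other arrays. Acta2 (6.75), Des (5.79) and Myh11 (3.77) were also highest there. Col3a1 (6.06), Pdgfra (4.07) and Vwf (3.13) were not, and Col1a1 (4.30) stood close to control replicate 3 (4.26). Without deficient replicate 1 Gcg stood at −1.14, Pyy at −0.78, Tac1 at −0.73 and Sst at −0.45. Of 15 neuron and glia markers 0 passed in limma, with 0 lower and 1 higher, and of 11 lymphocyte markers 0 passed, with 1 lower and 0 higher. Of the 10 epithelial markers 0 passed, with 1 lower and 2 higher, and of the 11 stomach markers 0 passed, with 0 lower and 1 higher.

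**Figure D4:**
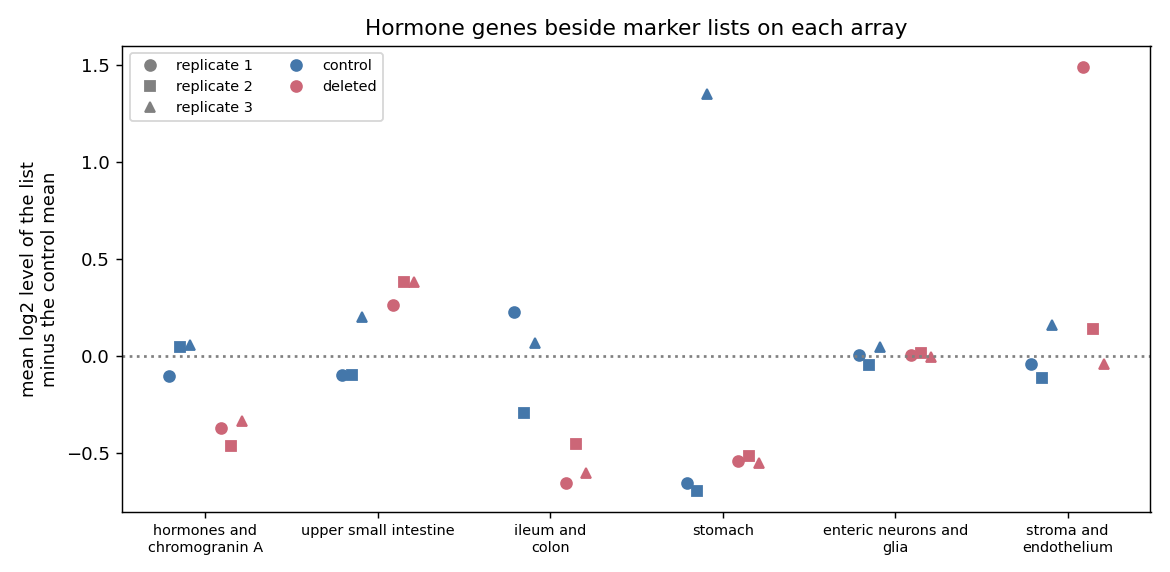
Mean log2 level of the hormone list and 5 marker lists on each array, minus the mean of the 3 control arrays; colour marks the group and symbols the replicate number. The 3 deficient arrays lie lowest for the hormone genes and for ileum and colon. In the latter list Ang4 and Retnlb weigh most in the gap between groups, and Car1 weighs on single arrays. The stomach list stands out on control replicate 3 and the stromal list on deficient replicate 1, each through some of its genes.

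Across all genes, 5 had array profiles closest to that of Gcg, by the mean absolute difference of profiles centred on their own means over the 6 arrays. Atp2c2, a calcium pump, was at a distance of 0.069 log2 units, followed by Tceal9 (0.091), Myrip (0.10), Tanc2 (0.106) and the nucleotide receptor P2ry6 (0.107). Their differences were −1.05, −1.07, −1.11, −1.02 and −0.97. Closeness to a gene that differs between the groups selects genes that differ too, so these differences are a description.

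**Figure D5:**
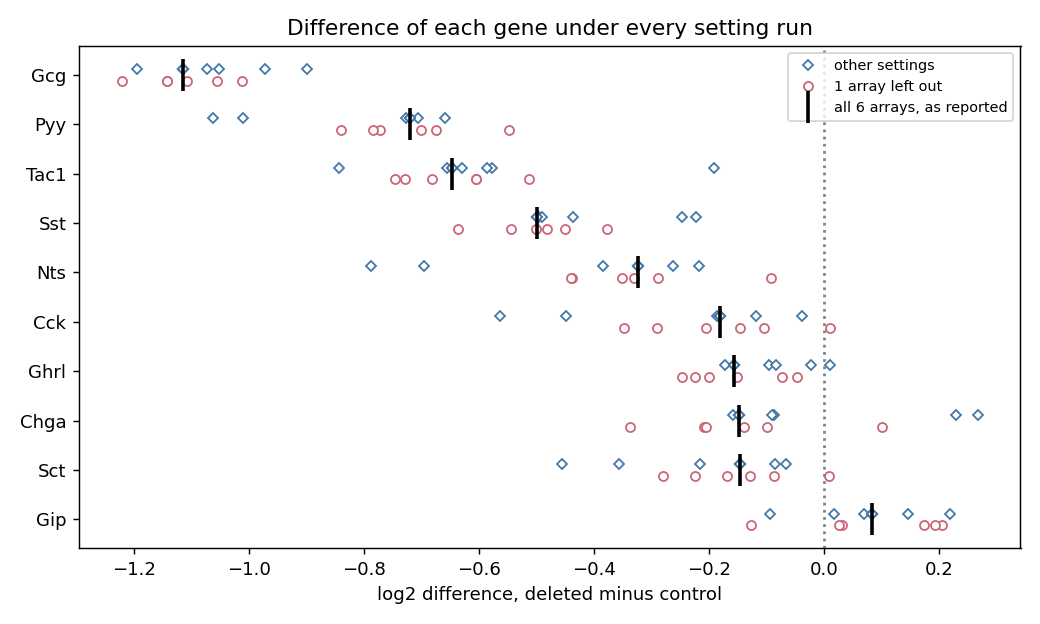
Log2 difference, deficient minus control, of each of the 10 genes with all arrays (vertical bar), with 1 array left out (circles) and under the other settings (diamonds). Gcg lies between −1.22 and −0.90 throughout, Pyy, Tac1, Sst and Nts stay below 0, and the other 5 cross 0.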

How the data were processed

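Total RNA of intestinal epithelial cells was labelled as biotinylated cRNA and hybridised to a 3′ Affymetrix array, per the labels' protocols. The authors deposited log2 values made with RMA, per the submitters' processing notes, with settings not given in the sources used here. Detection calls do not accompany the values, and precision is limited by having 3 arrays per group. Of 45101 probe sets, 34945 were paired with 1 gene through the platform's annotation. A gene was represented by its probe set with the highest mean over the 6 arrays (18193 genes), and all single-gene probe sets were fitted separately.

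Groups were compared with limma 3.58.1 in R 4.3.3 (lmFit, eBayes, two-sided tests, no covariate), adjusted by Benjamini-Hochberg over all features, threshold 0.05. Reported confidence intervals are 95%. The steps were tested on simulated data. Tables and plots used Python 3.11.15, pandas 2.3.3, numpy 2.4.6 and matplotlib 3.10.9.

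The members, gene lists, rule and settings were chosen with earlier results of these data known. All members are named, and of each other role list the called genes and the 4 with the smallest p. Of the marker lists, genes are named where a result stands beside them. Neurog3, Neurod1, Tph1, Dpp4 and the genes Gzma, Gata4, Car4, Fgf15, Hoxb13, Fabp6, Slc10a2, Gkn1, Gkn2 and Tff1 were named after their values were seen. The same holds for Retnlb, Car1, Mep1b, Slc51b and Aqp8, and for the other stomach, stromal and lymphocyte markers named. Settings tried were the replicate block, leaving out arrays, a Gapdh covariate, other scaling, a filter on dim features, another variance model, array weights and other probe set rules. Equal replicate numbers were checked for pairing, which the small correlations found cannot exclude, and the main fit used no pairing.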

Additional observations from a re-analysis of the deposited data

How the results depend on the processing

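With 1 array left out, the Gcg difference ran from −1.22 to −1.01, and the number of member genes and of member probe sets called lower from 0 to 1. That number was 0 in both fits with the Gapdh difference as a covariate (Gcg −0.97). With control replicate 3 as the only control array, the Gcg difference was −0.90. With array weights 4 member genes (Gcg, Pyy, Sst and Tac1) and 3 member probe sets (Gcg, Pyy and Tac1) were called lower, while 1406 of all genes (7.73%) were called. Member genes called higher stayed at 0 in every setting run. Of the other genes of the role lists, 2 were called lower and 1 higher. With 1 array left out these counts ran from 0 to 2 and from 0 to 1, and both were 0 with the Gapdh covariate. The sign turned for Cck (−0.348 to 0.0106) and Sct (−0.280 to 0.00776) among the settings with 1 array left out, above 0 without control replicate 3. It turned for Gip (−0.127 to 0.205) without control replicate 1, and was −0.0946 without control replicates 1 and 2. It turned for Ghrl with the Gapdh covariate (0.0102), and for Chga (−0.338 to 0.101) without control replicate 2, without control replicates 1 and 2 (0.230) and with the covariate (0.267), in the gene and probe set fits alike. The cause of these changes was not tested.

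With the replicate number as a block, Gcg kept its call (−1.11, limma adjusted p = 0.0296), 1 of the other role genes was called lower in place of 2 (Ptprn2 lost its call and Atoh1 kept it), and 113 genes were called in place of 141. Deviations of equal-numbered arrays correlated at 0.077, 0.105 and −0.007, against −0.128 to 0.012 for pairs of unequal number. The labels state no pairing, and these small correlations cannot exclude one.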

Other observations

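The hormone genes varied more among the control animals than among the deficient animals. The SD over 3 arrays was larger in the controls for all 10 members, against 51.3% of 18193 genes and 55.0% of the 6521 genes within the members' range of mean level. The members' median SD was 0.30 in the controls and 0.13 in the deficient animals, against 0.16 and 0.15 over all genes. Nts and Chga had the widest gap, with SDs of 0.40 against 0.06 and 0.45 against 0.11, and Ghrl the narrowest, 0.19 against 0.17. The larger control SD was not particular to the members. Among genes of the other role lists it was seen in Chgb (0.18 against 0.14), Resp18 (0.17 against 0.02), Mme (0.61 against 0.03) and Tph1 (0.38 against 0.06). Iapp (0.12 against 0.35) and Sox4 (0.03 against 0.51) went the other way. The highest control array was replicate 1 for Gcg and Tac1, replicate 2 for Gip, Sst, Ghrl and Chga, and replicate 3 for Pyy, Cck, Sct and Nts. Replicate 3 was the lowest control for Gcg, Sst, Ghrl and Chga, and it was also the array on which the 11 stomach markers averaged 6.31, against 4.27 to 4.45 on the others. The Gapdh 3′ minus 5′ difference ran from 0.22 to 0.93 in the controls and from 0.21 to 0.29 in the deficient animals, and the part of neither measure in the spread was tested.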
